A study of Homo sapiens with 6 samples.

Results

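Mitochondria continually join and divide, and 8 genes of this cycle were followed in LNCaP prostate cancer cells that overexpress GNA13, the gene of the G protein subunit Gα13. The members were taken by gene symbol: MFN1, MFN2, OPA1, OMA1, DNM1L, FIS1, MFF and MIEF1. All 8 had a row in the count table, out of 17297 genes. LNCaP is an established line derived from a prostate cancer metastasis, and it was carried here as a pair of stable lines. The control line, pBabe-vector, held the empty retroviral vector and is labelled WT. The other line, pBabe-GNA13, held the vector with GNA13. Each line gave 3 biological replicates, cultured on plates for 48 h in serum-containing RPMI medium, and total RNA was sequenced. One stable line stood for each condition, so an effect of GNA13 and any other difference between these lines cannot be told apart. P-values measured the spread between cultures of a line. Where cultures were paired as a block, as described below, they measured the spread left after differences between pairs were taken out.

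In fusion, the mitofusins MFN1 and MFN2 join the outer membranes of adjacent mitochondria, and OPA1, a GTPase of the dynamin family, joins the inner membranes. The inner membrane protease OMA1 cleaves OPA1 under stress, which limits fusion. In fission, the dynamin-related GTPase DNM1L (DRP1) is recruited from the cytosol by outer membrane receptors, MFF and MIEF1 (MiD51) among them, and constricts the organelle, while FIS1 is an outer membrane adaptor of the same process. Much of this machinery is controlled on the protein, by phosphorylation, ubiquitination and cleavage, which read counts do not measure.

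Library totals lay between 33002160 and 40628970 counts, so that 1 read equalled 0.0238 to 0.0312 TMM-normalized CPM (counts scaled to the effective library size), the unit of expression used throughout. The tag std was on 1 column of each line. The tagged pBabe-GNA13 column repeats the number 2, so it is called the std library of pBabe-GNA13, and its counterpart is replicate 1 of pBabe-vector. GNA13 checked the labels, at 747 to 886 CPM in pBabe-GNA13 and 65.4 to 76.7 CPM in pBabe-vector (log2 fold change 3.54, standard error 0.12, edgeR adjusted p = 9.12e-05). The 9 markers of LNCaP or luminal prostate cells lay between 83.3 and 4204 CPM in every library. In the blocked fit described below 4 of the 9 were called higher, against 9.32% of all genes. With chromosomes also centred 5 were, against 6.72% of all genes. KLK2 and KLK3 were among them, and KRT8 and KRT18 on chromosome 12 were not. Of 6 markers of other cell types, 3 were measured. Their summed level was 17.3 to 28.2 CPM in pBabe-GNA13 and 12.7 to 24.6 CPM in pBabe-vector, mostly from COL1A1. KRT5, a basal epithelial keratin, reached 3.08 and 3.72 CPM in the std library and replicate 3 of pBabe-GNA13. It had at most 0.592 CPM in pBabe-vector and no read in replicate 2 of either line. ALB, the albumin gene, followed the same pattern, at 3.05 and 4.24 CPM in those libraries and 0.0588 to 0.858 CPM in the other 4. Both were called higher in the blocked fit, and COL1A1, at 11.5 to 23.1 CPM, was not. The part of such transcripts in the results was not tested.

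pBabe-GNA13 was compared with pBabe-vector to ask whether the fusion and fission genes differ between the lines. In the quasi-likelihood fit of edgeR over all 17297 genes, no member passed a Benjamini-Hochberg adjusted p of 0.05, against 0.139% of all genes (0.116% as higher and 0.0231% as lower). An unadjusted p under 0.05 was also found for 0 of the 8, against 8.46% of all genes, and DESeq2 and limma-trend called 0. A p that misses the threshold does not show equal levels, and the 95% interval of each difference is given with its gene. Fitted fold changes ran from 0.871 for FIS1 and MIEF1 to 1.18 for DNM1L, with 6 members below 1 and 2 above. The median log2 fold change of the 8 was −0.05, beside −0.0013 over all genes of the table. Cultures with the same number or the tag std in both lines varied together, and a second fit took these 3 pairs as a block. That fit drew the spread of each gene largely from all genes (standard errors of 0.051 to 0.056 for the 8 members). With the block, 5 of the 8 were called, DNM1L and OMA1 as higher and MFN1, FIS1 and MIEF1 as lower. In that fit 19.7% of all genes were called, 9.32% higher and 10.4% lower. The same block gave 3 calls in DESeq2, without MFN1 (adjusted p = 0.0712) and OMA1 (adjusted p = 0.105), 0 in limma-trend (lowest adjusted p 0.0525) and 1 with chromosomes centred. Within pairs, 7 of the 8 members differed in the same direction in 3 of 3 pairs, as did 48% of all genes.

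**Figure D1:**
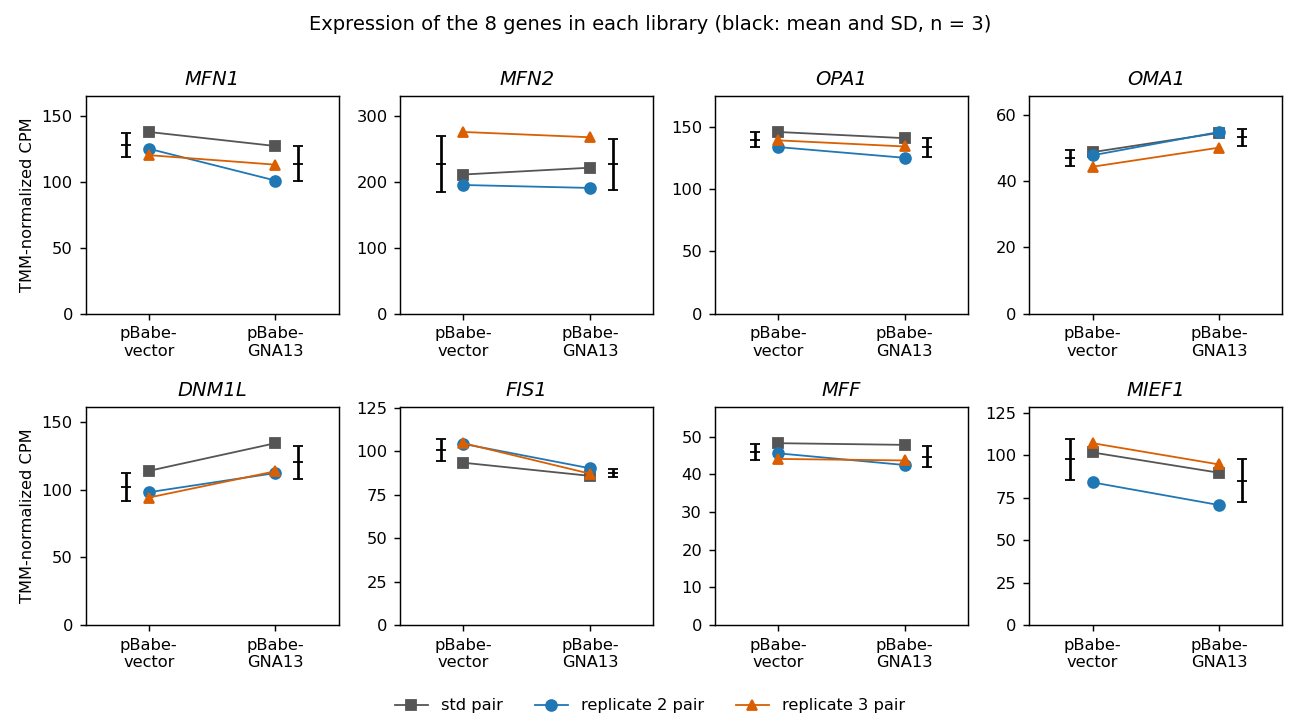
Each panel gives 1 gene, with TMM-normalized CPM on an axis that starts at 0 and is scaled to the gene, and a line joins the libraries of a pair across pBabe-vector and pBabe-GNA13. Black bars are the mean and SD of 3 libraries. The 3 lines of OMA1 and DNM1L slope up, those of FIS1 and MIEF1 slope down, and those of MFN2 are nearly level but far apart.

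MFN1, the first of the outer membrane mitofusins (chromosome 3, 179347709 to 179394936, GRCh38, Gencode 44), was at 127, 101 and 113 CPM in the std library, replicate 2 and replicate 3 of pBabe-GNA13. In pBabe-vector it was at 138, 125 and 120 CPM in replicates 1, 2 and 3. Only the std library of pBabe-GNA13 reached into the range of the control line. The means were 114 ± 13.1 and 128 ± 9.07 CPM (SD, n = 3 each), and the fitted log2 difference was −0.17 (95% interval −0.43 to 0.10, edgeR adjusted p = 0.831). With the pairs as a block the interval was −0.28 to −0.06 and MFN1 was called lower (edgeR adjusted p = 0.0266). Replicate 2 carried much of this. The difference was −0.31 in that pair, −0.12 in the std pair and −0.09 in the pair of replicate 3, and without the pair of replicate 2 the blocked call was absent (log2 fold change −0.11, edgeR adjusted p = 0.315).

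MFN2, the other mitofusin, which also tethers mitochondria to the endoplasmic reticulum (chromosome 1, 11980181 to 12015211), did not separate the lines. In pBabe-GNA13 it was at 222, 191 and 268 CPM in the std library, replicate 2 and replicate 3, and in pBabe-vector at 211, 195 and 276 CPM in replicates 1, 2 and 3. Replicate 3 was high and replicate 2 low in both lines, and the groups overlapped almost completely. The means were 227 ± 38.7 and 227 ± 42.6 CPM (SD, n = 3 each). The log2 fold change was −0.0045, with a 95% interval of −0.40 to 0.40 (edgeR adjusted p = 1), or −0.11 to 0.10 with the block (edgeR adjusted p = 0.998). A log2 difference beyond −0.11 or 0.10 lay outside the blocked interval.

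OPA1 (chromosome 3, 193593144 to 193697811) was the inner membrane fusion gene, and its level was close in all 6 libraries. It was at 141, 125 and 134 CPM in the std library, replicate 2 and replicate 3 of pBabe-GNA13, and at 146, 134 and 139 CPM in replicates 1, 2 and 3 of pBabe-vector. Each pBabe-GNA13 culture lay slightly below its paired control, by 0.05 to 0.10 on the log2 scale, and the groups overlapped. The log2 fold change was −0.07 (95% interval −0.28 to 0.15, edgeR adjusted p = 0.962), and with the block it was not called (interval −0.17 to 0.04, edgeR adjusted p = 0.425).

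OMA1, the protease that cleaves OPA1 (chromosome 1, 58415384 to 58546802), was at 54.6, 54.8 and 50.1 CPM in the std library, replicate 2 and replicate 3 of pBabe-GNA13. In replicates 1, 2 and 3 of pBabe-vector it was at 48.7, 47.8 and 44.3 CPM. The groups did not overlap, with pBabe-GNA13 the higher (two-sided exact permutation test, p = 0.1, the smallest that 3 against 3 libraries allow). The means were 53.2 ± 2.66 and 47.0 ± 2.31 CPM (SD, n = 3 each), and the log2 fold change was 0.18 (95% interval −0.03 to 0.39, edgeR adjusted p = 0.706). The within-pair differences were close to one another, 0.16, 0.20 and 0.18. With the block the standard error was 0.054, beside 0.055 for MFN1, whose pairs lay further apart. In that fit OMA1 was called higher (interval 0.07 to 0.29, edgeR adjusted p = 0.0191). The call was absent without the pair of replicate 2 (0.16, edgeR adjusted p = 0.116) or that of replicate 3 (0.19, edgeR adjusted p = 0.0886). Of the exon bases of OMA1, 257 are shared with DAB1 on the same strand, and reads there cannot be assigned to 1 of these genes.

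DNM1L, the fission GTPase (chromosome 12, 32679200 to 32745650), showed the largest difference of the 8. It was at 135, 112 and 114 CPM in the std library, replicate 2 and replicate 3 of pBabe-GNA13 and at 114, 98.2 and 94.3 CPM in replicates 1, 2 and 3 of pBabe-vector. The std libraries were the highest of both lines, and the groups overlapped only because replicate 1 of pBabe-vector stood above the lower cultures of pBabe-GNA13. The means were 120 ± 12.4 and 102 ± 10.5 CPM (SD, n = 3 each), or 0.23 apart on the log2 scale (95% interval −0.04 to 0.51, edgeR adjusted p = 0.697). Within pairs it was 0.24, 0.19 and 0.27 higher, and with the block it was called (interval 0.13 to 0.34, edgeR adjusted p = 0.00149). The call held whichever pair was left out, with the edgeR adjusted p no higher than 0.0209. With so few libraries, the spread in those fits came almost wholly from all genes (standard error 0.0645 without the std pair, as for FIS1 and MIEF1). It says little on the scatter of DNM1L itself. The rest of chromosome 12 was higher as well, as given below for each chromosome.

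Of the outer membrane proteins of fission, FIS1 (chromosome 7, 101239458 to 101252316) was at 85.9, 90.3 and 87.2 CPM in the std library, replicate 2 and replicate 3 of pBabe-GNA13. In pBabe-vector it was at 93.5, 104 and 105 CPM in replicates 1, 2 and 3, and the groups did not overlap (exact two-sided permutation test, p = 0.1, the smallest possible). FIS1 and OMA1 were the 2 members whose groups did not overlap, as was the case for 14.1% of all genes. The means of FIS1 were 87.8 ± 2.26 and 101 ± 6.39 CPM (SD, n = 3 each), and the fitted log2 difference was −0.20 (95% interval −0.41 to 0.0089, edgeR adjusted p = 0.611). The pairs differed by −0.12, −0.21 and −0.26 (std, replicates 2 and 3), and with the block FIS1 was called lower (interval −0.31 to −0.09, edgeR adjusted p = 0.00763), but not without the pair of replicate 3 (−0.16, edgeR adjusted p = 0.170).

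MIEF1, a receptor that binds DNM1L on the outer membrane (chromosome 22, 39499432 to 39518132), was at 89.6, 70.6 and 94.5 CPM in the std library, replicate 2 and replicate 3 of pBabe-GNA13. In pBabe-vector it was at 102, 83.9 and 107 CPM in replicates 1, 2 and 3. Replicate 2 was the lowest culture in both lines, and the groups overlapped. The log2 fold change was −0.20 (95% interval −0.53 to 0.13, edgeR adjusted p = 0.844). Each pair differed by −0.18 to −0.25, and with the block MIEF1 was called lower (interval −0.31 to −0.10, edgeR adjusted p = 0.00556). The call held whichever pair was left out, with the edgeR adjusted p no higher than 0.0431. As for DNM1L, the spread in those fits came almost wholly from all genes and says little on the scatter of MIEF1 itself. MIURF, an open reading frame annotated as a gene of its own, shares 213 exon bases with MIEF1 on the same strand.

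MFF, a receptor for DNM1L and the least abundant member (chromosome 2, 227325151 to 227357833), was at 47.9, 42.5 and 43.7 CPM in the std library, replicate 2 and replicate 3 of pBabe-GNA13. It was at 48.3, 45.6 and 44.1 CPM in replicates 1, 2 and 3 of pBabe-vector, and the groups overlapped. The log2 fold change was −0.04 (95% interval −0.26 to 0.18, edgeR adjusted p = 0.988, or 0.680 with the block, interval −0.16 to 0.07). OPA1, DNM1L and MFF share 208, 202 and 507 exon bases with noncoding genes annotated on the opposite strand, and reads there cannot be told apart unless strand was used in counting.

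**Figure D2:**
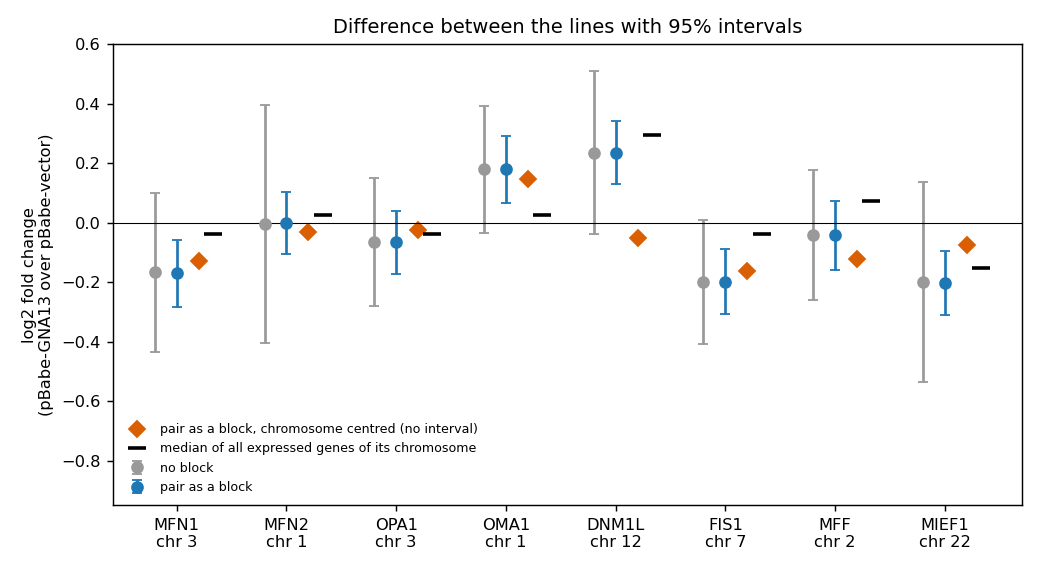
Log2 fold change of pBabe-GNA13 over pBabe-vector on the vertical axis for each of the 8 genes, as fitted without a block (grey) and with the pair of cultures as a block (blue), both with 95% intervals. Orange diamonds give the blocked value with each chromosome centred on its median, and black bars the median of the expressed genes of the same chromosome. The grey intervals all include 0, the blue ones exclude 0 for 5 genes, and the diamond of DNM1L lies near 0.

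Whole chromosomes differed between the lines, and the members lie on 6 of them. The 582 expressed genes of chromosome 12 (mean log2 CPM over 1) differed by a median of 0.29 (log2), and 94.0% of them were above 0. The 297 genes of chromosome 22 had a median of −0.15, with 17.5% above 0. With the block 435 of the 582 and 129 of the 297 were called. On the chromosomes of the other members, the medians were between −0.04 and 0.07. At 0.23, DNM1L stood above 35.4% of the genes of its own chromosome, and the 12 expressed genes that start within 2 Mb of it had a median of 0.23, with 10 of 12 above 0. MIEF1, at −0.20, stood above 34.3% of the genes of chromosome 22, and its 55 neighbours within 2 Mb had a median of −0.16.

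With the block and each chromosome of each library centred on its own median, 1 of the 8 members was called, against 14.3% of all genes (6.72% higher, 7.61% lower). This was FIS1, as lower (log2 fold change −0.16, edgeR adjusted p = 0.0349). DNM1L changed sign, to −0.05 (edgeR adjusted p = 0.568), and MIEF1 moved to −0.08 (edgeR adjusted p = 0.379). OMA1 kept a value of 0.15 and MFN1 one of −0.13, and neither passed (edgeR adjusted p = 0.0701 and 0.106). MFF moved away from 0, to −0.12 (edgeR adjusted p = 0.160), and OPA1 and MFN2 were at −0.02 and −0.03. OMA1 was the member that stood highest within its chromosome, above 87.1% of 1166 genes of chromosome 1, and FIS1, among 539 genes of chromosome 7, the one that stood lowest. Counts of RNA cannot say whether a chromosome differed in copy number between the lines.

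For 5 of the 8 members the pair of cultures held a larger share of the variation than the line did. The sum of squares of log2 CPM over the 6 libraries was split into the pair of cultures, the line and a remainder. The pair has more levels than the line and takes up more of any scatter. A larger share of the pair therefore does not by itself show that pairs differed more than lines. For MFN2 the pair held 98.5% and the line 0.0032%. For MFF, OPA1 and MIEF1 the pair held 80.5%, 75.2% and 72.3%, and for MFN1 51.2%, beside 36.8% in the line. DNM1L had 49.5% in the pair and 49.7% in the line. In OMA1 and FIS1 the line held the larger share, 69.5% and 74.6%. Over the 14059 genes with a mean of at least 1 CPM, the median shares were 70.2% for the pair, 12.6% for the line and 7.06% for the remainder.

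Between replicate 3 and replicate 2, MFN2 was higher by 0.49 (log2) in pBabe-GNA13 and by 0.50 in pBabe-vector. MIEF1 was higher by 0.42 and 0.35, while OMA1 was lower by 0.13 and 0.11. For DNM1L, FIS1 and MFF this difference was between −0.06 and 0.04 in both lines. MFN1 was 0.16 higher in replicate 3 than in replicate 2 in pBabe-GNA13, as MFN2 was higher, but 0.06 lower in pBabe-vector. From the std library to replicate 2 of pBabe-GNA13, and from replicate 1 to replicate 2 of pBabe-vector, both mitofusin genes fell. They thus moved together in some of these comparisons and not in all.

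**Figure D3:**
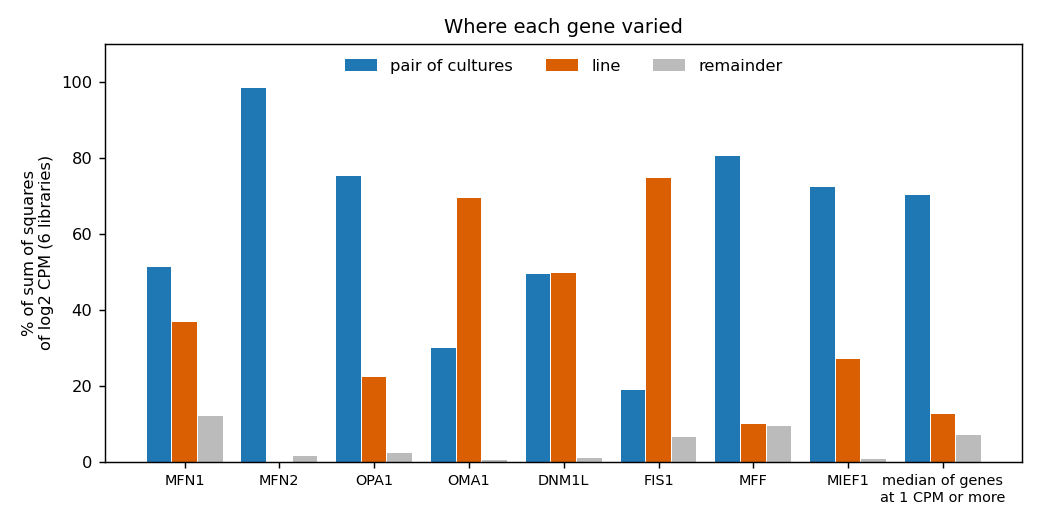
Bars give the percent of the sum of squares of log2 CPM over 6 libraries that falls to the pair of cultures (blue), the line (orange) and the remainder (grey) for each gene, with the medians over the 14059 genes of at least 1 CPM at the right. The blue bar of MFN2 stands at 98.5%, and the orange bar exceeds the blue bar clearly in OMA1 and FIS1.

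Levels of different genes were compared per kilobase of annotated exon, with the exons of all transcripts of a gene merged. In pBabe-vector FIS1 was the most abundant, at 56.3 ± 3.57 CPM per kilobase (SD, n = 3), above 94.5% of the genes with a mean of at least 1 CPM. The mitofusins followed, MFN2 at 22.2 ± 4.16 and MFN1 at 21.5 ± 1.53 CPM per kilobase, and their ranges overlapped. OPA1 was at 15.4 ± 0.670 CPM per kilobase, and its lowest library, 14.8, lay just above the highest of MIEF1, 14.2. MIEF1, DNM1L and OMA1 were at 12.9, 12.7 and 12.6 CPM per kilobase, with overlapping ranges. MFF was the lowest, at 7.45 ± 0.343 CPM per kilobase, above 55.8% of the genes. FIS1 was first and MFF last in all 6 libraries. Because merged exons include rarely used ones, levels of genes with long alternative exons are understated on this scale.

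The balance between members was followed as ratios of levels per kilobase within each library. The ratio of DNM1L to its receptor MFF was 2.16, 2.03 and 1.99 in the std library, replicate 2 and replicate 3 of pBabe-GNA13. It was 1.81, 1.65 and 1.64 in replicates 1, 2 and 3 of pBabe-vector. The ratio of DNM1L to OPA1, a fission against a fusion GTPase, was 1.07, 1.01 and 0.951 in pBabe-GNA13 and 0.878, 0.825 and 0.761 in pBabe-vector, in the same order. Both of these ratios were higher in each pBabe-GNA13 library than in each pBabe-vector library. The ratio of OPA1 to OMA1 was the reverse, 0.938 to 1.10 in pBabe-GNA13 and 1.15 to 1.29 in pBabe-vector. DNM1L to MFN2 was 0.539 to 0.771 and 0.434 to 0.685, and these ranges overlapped, with replicate 3 the lowest of both lines. Within each of the 3 pairs this ratio too was higher in pBabe-GNA13. MFN2 to MFN1 was 1.01 to 1.38 in pBabe-GNA13 and 0.891 to 1.33 in pBabe-vector, and these ranges overlapped. Variation shared by both genes of a ratio drops out of it, and how often ratios of other genes separate the lines was not counted. Ratios with DNM1L were not corrected for the higher median of chromosome 12, where DNM1L lies.

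**Figure D4:**
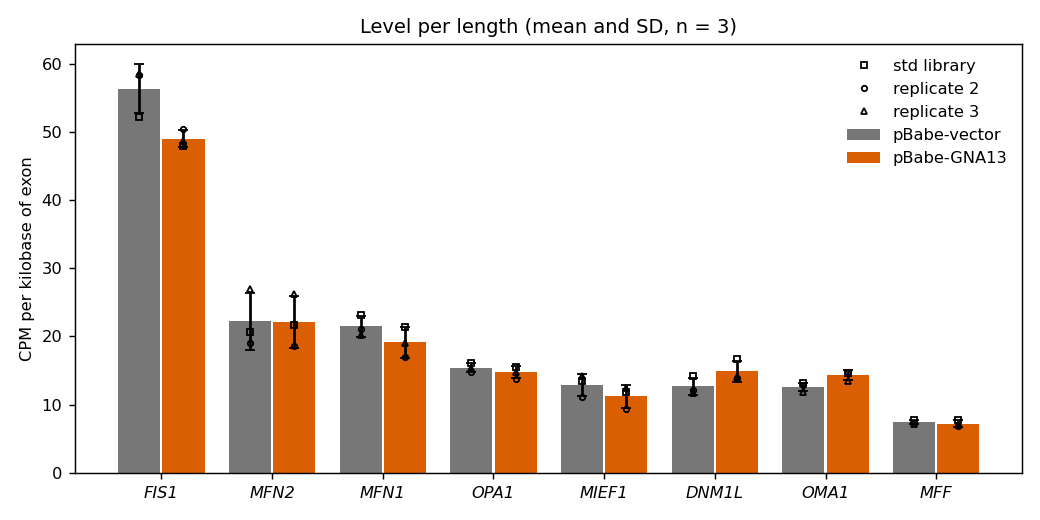
Bars give the mean level in CPM per kilobase of exon with the SD over 3 libraries for pBabe-vector (grey) and pBabe-GNA13 (orange), open symbols are single libraries, and genes are ordered by the pBabe-vector mean. FIS1 stands at 56.3 and 49.0, more than all other members, and MFF at 7.45 and 7.23, below them.

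Among 14058 other genes with a mean of at least 1 CPM, those whose log2 CPM ran most like that of the GTPases over the 6 libraries were listed as a description, since the 6 libraries share lines and pairs. For MFN2 they were NFKBIA (Pearson's r = 0.999) and FEN1 (r = 0.999), and 827 genes had an r over 0.95. For MFN1 the closest was SEC24A (r = 0.994). For OPA1 they were AC004166.6 and MAP9 (r = 0.998 and 0.991), and for DNM1L ZNF805 and KCTD10 (r = 0.993 and 0.990). These members had 50 to 64 genes with an r over 0.95. KCTD10 lies on chromosome 12, as DNM1L does.

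A further 42 genes of mitochondrial shape and movement were listed by role, of which 41 were measured. None was called without the block, 1 had an unadjusted p under 0.05, and 15 had a log2 fold change above 0. The median was −0.04. With the block 6 were called, 14.6% of the 41 beside 19.7% of all genes, 3 higher and 3 lower. Of the 6 measured genes of fusion control 1 was called, USP30, a deubiquitinase of the outer membrane, as higher (log2 fold change 0.38, edgeR adjusted p = 0.000784 in the blocked fit and 0.486 without). Of the 7 genes of OPA1 processing and inner membrane scaffolding 1 was called, PHB2, a prohibitin (0.19, edgeR adjusted p = 0.702, or 0.0148 with the block). The 4 proteases measured there, YME1L1, AFG3L2, SPG7 and PARL, had log2 fold changes of −0.06, −0.05, −0.14 and 0.20, and none was called in either fit.

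Of the 12 accessory genes of fission 1 was called with the block, PGAM5, a mitochondrial phosphatase (0.38, edgeR adjusted p = 0.725, or 5.98e-06 with the block). MIEF2, the paralog of MIEF1, was at −0.19 (edgeR adjusted p = 0.845, or 0.132 with the block). USP30, PHB2 and PGAM5 are the 3 of these genes that lie on chromosome 12, with DNM1L, and none of them was called once chromosomes were centred. Of the 10 genes of MICOS, the complex that shapes cristae, and its outer membrane partners, SAMM50 (−0.27, edgeR adjusted p = 0.000495 with the block, chromosome 22) and CHCHD3 (−0.17, edgeR adjusted p = 0.0391 with the block) were called lower there. Neither was called with chromosomes centred. Of the 6 genes of transport along microtubules and actin, TRAK2, a motor adaptor, was called lower with the block (−0.23, edgeR adjusted p = 0.00282). It was the 1 gene of the 41 that was called after centring (−0.31, edgeR adjusted p = 0.000181), where 14.3% of all genes were called. The other 5 transport genes had log2 fold changes from −0.13 (RHOT1) to −0.0055 (TRAK1) and were called in neither fit.

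The promoters of all 8 members were in RefSeq (GRCh38.p14), as windows from 250 bases before to 50 bases after a start site. Both strands were searched for 6 motifs written as exact letters, none of which contains another. The motifs were an ETS core (CCGGAAGT), an NRF1 site (GCGCATGCG), a YY1 site (AAGATGGCG), a CCAAT box (CCAAT), a GC box (GGGGCGGGG) and a cyclic AMP response element (TGACGTCA). The ETS core, letters bound by the GABPA family of factors, was in MFN1, FIS1 and MIEF1, the 3 members called lower with the block. It was in 4.14% of all 35116 windows, which include those of genes not expressed here. Among expressed genes matched by symbol, 959 had the letters in any of their windows and 7987 did not. That share was larger, but it counts genes, which may have several windows, and not windows. The NRF1 letters were in OPA1 (1.92% of windows), the GC box in FIS1 and MIEF1 (15.7%), and the CCAAT box in MFN1, OPA1, DNM1L, MFF and MIEF1 (34.6%). The YY1 letters (1.75%) and the response element (1.85%) were in none of the 8. The 150 bases before the start site are shown for the 3 promoters with the ETS core, which is in capitals, 5′ to 3′ on the strand of the gene, at chr3:179347559-179347708 (plus strand), chr7:101245082-101245231 (minus strand) and chr22:39502140-39502289 (plus strand).
MFN1: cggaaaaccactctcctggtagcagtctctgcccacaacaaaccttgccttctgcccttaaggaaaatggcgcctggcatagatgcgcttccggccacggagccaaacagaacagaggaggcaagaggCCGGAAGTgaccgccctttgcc
FIS1: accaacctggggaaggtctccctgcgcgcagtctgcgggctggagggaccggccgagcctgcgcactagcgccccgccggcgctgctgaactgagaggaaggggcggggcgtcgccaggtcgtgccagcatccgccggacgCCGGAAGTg
MIEF1: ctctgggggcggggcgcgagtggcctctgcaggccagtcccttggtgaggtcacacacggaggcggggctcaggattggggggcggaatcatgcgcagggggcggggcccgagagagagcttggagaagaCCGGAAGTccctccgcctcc
The MFN1 window ends just before the Gencode 44 gene, the FIS1 window lies in introns of its longer transcripts, and part of the MIEF1 window is in first exons of noncoding transcripts. In each of them the letters run in the direction of the gene and begin close to the start site, 22, 9 and 20 bases before it. A match of letters is a description, not a bound site, and the search was made after the fold changes were known. Of the expressed genes with a window matched by symbol, 959 had the letters, of which 11.8% were called lower and 8.34% higher with the block, and their median log2 fold change was −0.03. Of the 7987 without the letters 13.7% were called lower and 11.9% higher, with a median of −0.01. The windows of the other members held 37 CpG in MFN2, 27 in OPA1 and OMA1 and 21 in DNM1L, and the 3 windows of MFF held 23, 4 and 0, beside a median of 14 over all windows.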

How the data were processed

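Total RNA of 3 biological replicates each of LNCaP pBabe-vector and pBabe-GNA13 was sequenced. The authors assessed reads with FastQC 0.11.7, aligned them with STAR (version not given in the sources used here) to the Gencode 38 transcriptome and counted them with featureCounts. The values they deposited are whole-number counts per gene symbol, not the log2 CPM the methods describe, and the filter behind the 17297 genes is not given in the sources used here. No column was left out (0).

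After TMM scaling, the quasi-likelihood functions of edgeR 4.0.16 (glmQLFit with its legacy method, glmQLFTest; R 4.3.3) were run over all genes, with the line as the only term, no filter on low counts and Benjamini-Hochberg adjustment, and called at an adjusted p under 0.05. log2 CPM used a prior count of 2. Intervals are 95% from the moderated fit. Limits from depth cover counting error only, because the reads carry no molecular identifiers and may repeat a molecule. A count of 3 equals 0.0715 to 0.0935 CPM.

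The pairs come from the numbers and the tag std in the column headings. Deviations from the group means correlated within pairs (Pearson's r over 12778 genes, themselves not independent: 0.659 std, 0.807 replicate 2, 0.888 replicate 3) and at −0.736 to 0.125 between pairs. Deviations of a line cancel over its cultures, which by itself pulls values between pairs down when those within pairs are positive. Because of the values within pairs, the blocked fit is given where it changes a call. For chromosome centring, the median deviation of the expressed genes of each chromosome in each library entered as an offset. Positions came from Gencode 44 (GRCh38), with 14479 of 17297 symbols matched, 706 of them through RefSeq synonyms. Whether strand was used in counting is not given in the sources used here. The fits were tested on simulated data. Alternatives were DESeq2 1.42.0, limma-trend (limma 3.58.1), other scalings, removal of genes whose mean log2 CPM was under 1, and leaving out each library or pair. A further 5, listed with the alternatives at the end, were chosen after seeing the data. Blocked fits without a pair have too few libraries to estimate the spread of a single gene, and took it almost wholly from all genes. The blocked fit of all 6 libraries also took that spread largely from all genes, so its calls rest little on the scatter of a single gene.

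The members and lists were chosen with earlier results of these data known. Genes named in the text are the 8 members, GNA13, up to 3 genes of each list called with the block, and for each of 4 GTPase genes the 2 with the most similar levels, of which 1 is not reported here. The markers, the proteases, MIEF2, RHOT1 and TRAK1 were added after their values were seen. Figures were drawn with matplotlib 3.10.9 (Python 3.11.15).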

Additional observations from a re-analysis of the deposited data

How the results depend on the processing

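Over the 8 members and all alternatives, 135 of 168 values kept their direction and their side of the threshold, 25 passed the threshold that they had missed, and 8 changed sign. MFN2, at −0.0045 in the fit without the block, changed sign with library totals alone (0.027). It also did so with the block and without the pair of replicate 2 (0.0085) or replicate 3 (0.028). Without each library in turn it took either sign, from −0.14 to 0.16. DNM1L changed sign under chromosome centring, with and without the block (−0.052 in both), and the other alternatives left it between 0.15 and 0.32. No unblocked alternative called a member (lowest adjusted p 0.421, FIS1 under limma-trend).

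With the replicate block 5 members were called, and 5, 3 and 3 when the std, replicate 2 and replicate 3 pairs were left out in turn. Chromosome centring with the block gave 1. The alternatives added after seeing the data gave 3 (block in DESeq2), 5 (block with the newer edgeR method) and 0 (block in limma-trend, lowest adjusted p 0.0525 for DNM1L). The other dynamics genes gave 6, 8, 5, 4 and 1 in the same order, then 5, 5 and 1.

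All genes called numbered 24, and 3407 with the block. Without each library in turn there were 2 to 15, the lowest without the std library of pBabe-GNA13. DESeq2 called 271, limma-trend 5, and with low genes removed (mean log2 CPM under 1) 11 were called. Blocked fits gave 3266, 2550 and 2250 when the std, replicate 2 and replicate 3 pairs were left out in turn, 2480 with chromosome centring, 2000 in DESeq2, 433 in limma-trend and 3129 with the newer method. The cause of these differences was not tested. Centring without the block and the newer method without it, both also added, called no member. GNA13 stayed called in all fits.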
